A study of Mus musculus with 4 samples.

Results

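The nuclear genes of the mitochondrial respiratory chain and ATP synthase were compared between liver myeloid cells with and without a floxed interleukin-10 receptor gene. They were taken by name: protein-coding rows whose symbol starts with Nduf, Uqcr, Atp5 or Cox followed by 4, 5, 6, 7 or 8, together with Sdha, Sdhb, Sdhc, Sdhd, Cyc1 and Cycs. The rule gave 96 of the 55487 rows of the count table. It used no measured value, but it was chosen with earlier results of these data known. By complex these were 36 subunits and 8 assembly factors of complex I, 4 subunits of complex II, 9 of complex III, 20 of complex IV and 17 rows for ATP synthase, with cytochrome c (Cycs) and Atp5s making up the rest. Atp5s carries the prefix but is a coupling factor and no subunit, and Ndufa4 was placed with complex IV, where its protein resides.

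The study has 4 libraries of poly(A) RNA from livers, 2 of LysM-Cre IL10R wt/wt and 2 of LysM-Cre IL10R fl/fl mice. All 4 carry LysM-Cre, in which the lysozyme 2 locus drives Cre recombinase in macrophages, monocytes and granulocytes, so that the groups differ in the receptor allele alone, as far as the labels say. The sort kept CD45+ CD11b+ cells without CD3 or CD11c after collagenase and DNase digestion and Percoll enrichment. Age, further treatment and whether each library came from a separate animal are not in the labels, so the p-values below measure the spread between these libraries, which may be technical.

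Complexes I to IV of the inner mitochondrial membrane pass electrons from NADH and succinate to oxygen, with ubiquinone and cytochrome c as carriers, and complexes I, III and IV pump protons. ATP synthase, also called complex V, uses the returning protons to make ATP. All of these except complex II combine subunits encoded in the nucleus with a few encoded in the mitochondrial genome, and myeloid cells differ in how far they rely on them: macrophages of a resting or alternatively activated state are known for oxidative metabolism, neutrophils for glycolysis and few mitochondria.

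Total counts ran from 17154042 to 26441014 per library. Il10ra, the gene of the receptor's ligand-binding chain, checks the labels: it stood at 1111 and 993 CPM (counts scaled to a common library total) in wt/wt 1 and 2 and at 69.3 and 14.8 in fl/fl 1 and 2. Xist was counted 4298 times in fl/fl 2 and 0 times in the other 3 libraries, which had Y-linked transcripts, so sex differed within the fl/fl group. Ptprc (CD45) was at 1095 to 1579.7 CPM and Itgam (CD11b) at 368 to 501, and the 4 T cell markers together at most at 1.31. The Kupffer cell genes Clec4f, Vsig4 and Timd4 were at 0.873 CPM or less in every library, so that defining markers of the resident liver macrophage were near 0. Markers of several cell types differed between the groups: the 13 neutrophil markers summed to 3307 and 4134 CPM in wt/wt against 40145 and 17978 in fl/fl, the 8 granulocyte precursor markers to 62.6 and 53.6 against 1675 and 552, and the 10 Kupffer cell and macrophage markers to 922 and 913 against 303 and 208. In that last list 6 genes were tested, 5 negative and 1 positive (Cd5l, at 2.68 CPM or less). C1qa, C1qb and C1qc passed as lower. Adgre1, a general macrophage marker, was at 178 and 183 CPM against 150 and 156 (adjusted p = 0.406, edgeR). The classical monocyte markers were mixed: Hp rose, Chil3 was at 1370 and 714 CPM against 8404 and 2069 without passing, and Ly6c2, F13a1 and Ccr2 had log2 fold changes of 0.47, 0.23 and −0.23. Of the 5 dendritic cell markers, Itgax, the gene of the CD11c that the sort excludes, fell from 158 and 134 to 24.6 and 47.1 CPM, while Flt3 was at 12.1 and 17.2 against 23.7 and 20.1. Of the 4 NK cell markers, Nkg7 and Prf1 rose, while the receptor genes Ncr1 and Klrb1c were at 1.14 CPM or less in every library. The 6 erythroid markers summed to 20.8 and 20.4 CPM against 36.7 and 95.2, with 4 tested, all 4 above in both fl/fl libraries and 0 past the threshold in edgeR (3 at an unadjusted p under 0.05). Transcripts of the mitochondrial genome took 1.04% and 0.822% of the counts (wt/wt) against 0.759% and 0.962% (fl/fl). In such bulk samples, fewer cells of a type and less RNA per cell cannot be told apart. The part of these differences in the results on the respiratory chain was not tested.

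Most nuclear respiratory chain genes stood somewhat higher in fl/fl than in wt/wt and few passed the test one by one, with medians between 0.26 and 0.47 on the log2 scale in the 5 complexes. Of the 96 members, 90 had enough counts to be tested and 86 of these had a positive log2 fold change (fl/fl over wt/wt), where 51.9% of all 13496 tested genes did. Their median was 0.38, a 1.30-fold difference, against 0.02 over all tested genes. Summed over all 96 members, expression was 7037 and 6748 CPM in wt/wt 1 and 2 and 9172 and 8854 in fl/fl 1 and 2. The 2 groups were therefore farther apart than the libraries within either. In 70 of the 90 tested members both fl/fl libraries lay above both wt/wt libraries, 1 had both below, and 19 overlapped. Over all tested genes the share with both fl/fl libraries above was 28.1%, and with both below 26.3%.

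Past an adjusted p of 0.05 (edgeR quasi-likelihood test, Benjamini-Hochberg adjustment over all 13496 tested genes) 5 members rose and 0 fell. The rising share over all tested genes was 2.69%, and the falling share 3.16%. At an unadjusted p under 0.05 the counts were 37 members higher, against a background of 11.8% for higher genes, and 1 lower. DESeq2 called 12 members higher (background 5.81%) and 0 lower, and limma-voom 5 higher (background 1.89%) and 0 lower. Leaving out wt/wt 1 or wt/wt 2 ended all 5 calls, as it did every call in the table, while the median over the members stayed at 0.40 and 0.38. Without fl/fl 1, the library with the highest granulocyte and cell cycle sums, 78 of 90 members were positive at a median of 0.33. Without fl/fl 2, the female library, 85 were positive at a median of 0.42.

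**Figure D1:**
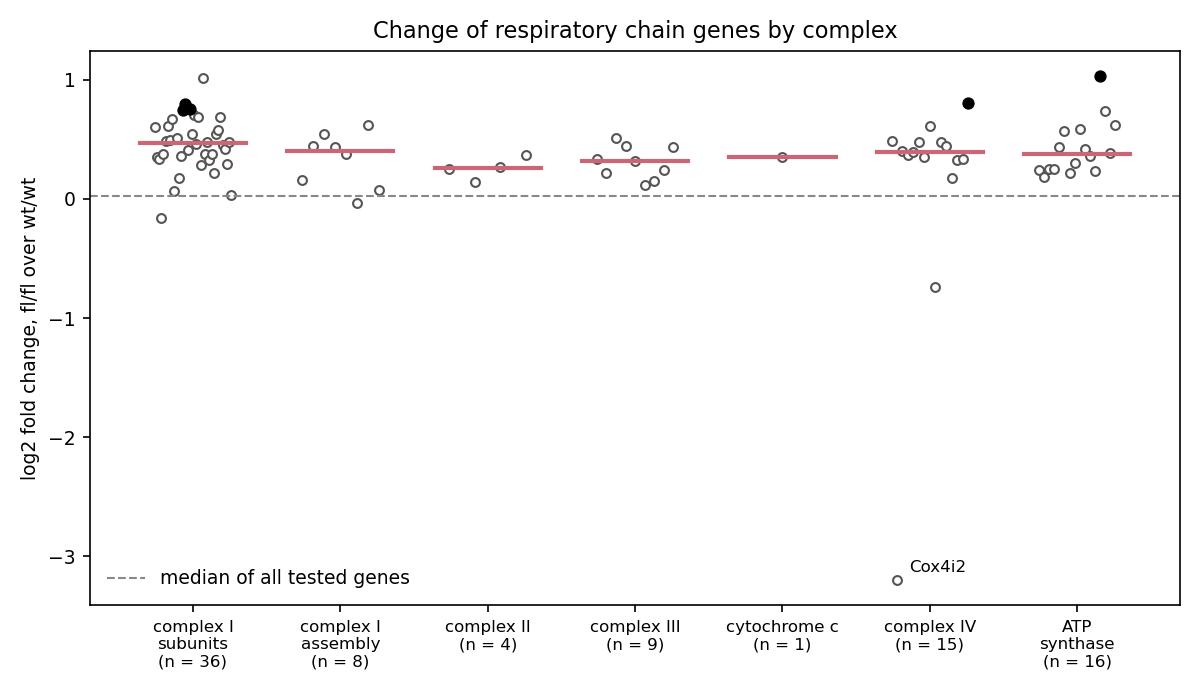
Log2 fold change (fl/fl over wt/wt, y axis) of each tested member, 1 point per gene, grouped by complex, with the class median as a bar and the median of all tested genes as a dashed line. Points of all complexes lie mostly above the dashed line, with class medians from 0.26 in complex II to 0.47 in complex I subunits, and Cox4i2 lies far below at −3.20.

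The 5 genes that rose encode 3 supernumerary subunits of the membrane arm of complex I (Ndufb3, Ndufb10 and Ndufb11), 1 subunit of complex IV (Ndufa4) and 1 membrane subunit of ATP synthase (Atp5k). Their promoters are shown because these are the members past the threshold, so that the sequence upstream of each can be read beside its values. Each line gives the 200 bases from 170 before the RefSeq transcript start to 30 after it (GRCm38.p6, 5′ to 3′ on the gene's strand), with capitals for a match to 1 of 3 motif cores that are known from promoters of respiratory chain genes.
Atp5k (chr5:108434370-108434569, minus strand): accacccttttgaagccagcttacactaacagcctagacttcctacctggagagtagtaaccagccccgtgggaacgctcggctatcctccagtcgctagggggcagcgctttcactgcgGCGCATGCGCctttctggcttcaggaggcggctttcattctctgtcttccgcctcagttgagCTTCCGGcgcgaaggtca
Ndufa4 (chr6:11907421-11907620, minus strand): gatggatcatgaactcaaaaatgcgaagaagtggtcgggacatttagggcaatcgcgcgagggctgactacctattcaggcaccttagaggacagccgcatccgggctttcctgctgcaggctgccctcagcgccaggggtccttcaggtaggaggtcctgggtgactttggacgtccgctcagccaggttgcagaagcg
Ndufb3 (chr1:58586227-58586426, plus strand): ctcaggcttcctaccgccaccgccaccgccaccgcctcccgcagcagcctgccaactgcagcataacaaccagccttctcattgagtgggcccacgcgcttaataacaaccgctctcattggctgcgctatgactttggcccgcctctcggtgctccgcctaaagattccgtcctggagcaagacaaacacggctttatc
Ndufb10 (chr17:24724394-24724593, minus strand): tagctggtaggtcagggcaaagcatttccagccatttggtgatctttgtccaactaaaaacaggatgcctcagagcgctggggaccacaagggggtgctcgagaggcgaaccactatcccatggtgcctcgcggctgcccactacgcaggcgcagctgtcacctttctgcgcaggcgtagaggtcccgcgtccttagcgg
Ndufb11 (chrX:20617590-20617789, minus strand): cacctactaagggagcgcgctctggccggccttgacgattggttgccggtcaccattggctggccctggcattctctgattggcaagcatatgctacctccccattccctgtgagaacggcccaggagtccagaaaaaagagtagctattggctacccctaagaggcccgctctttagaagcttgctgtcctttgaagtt
The motif cores searched, on both strands and over 300 bases from 250 before to 50 after the start, were GCGCATGC for NRF1, CCGGAAG for the ETS family, to which GABP belongs, and AAGATGGCG for YY1. In Atp5k the NRF1 core was matched at −50 on the gene's strand and, overlapping it, at −48 on the other, and the ETS core on the other strand at 12 bases past the start. None of the 3 was in the windows of the other 4 genes. Over the 77 members with a promoter entry, the NRF1 core was present in 13 (16.9%), the ETS core in 18 (23.4%) and the YY1 core in 8 (10.4%). Among the 9695 tested genes with an entry the shares were 5.9%, 20.6% and 3.7%, and among all 27025 genes with an entry 3.0%, 9.9% and 1.6%. Members with and without a match differed little in their change: the median log2 fold change was 0.39 and 0.39 for the NRF1 core, 0.40 and 0.38 for the ETS core, and 0.37 and 0.40 for the YY1 core. These matches describe letters in a window and were not tested for binding.

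Atp5k (ENSMUSG00000050856, chromosome 5, 108433244 to 108434448, minus strand, GRCm38) encodes subunit e, which sits where ATP synthase dimers meet. Its levels were 14.0 and 14.6 CPM in wt/wt 1 and 2 and 29.2 and 29.3 in fl/fl 1 and 2. The libraries of each group nearly coincided and the groups were far apart. The means were 14.3 ± 0.406 and 29.3 ± 0.113 CPM (SD, n = 2 each), a log2 fold change of 1.03 ± 0.19 (SE) with an adjusted p of 0.0306 in edgeR. A pseudogene copy, Atp5k-ps2, matches 56.6% of the transcript and had 0 counts in all 4 libraries.

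Ndufa4 (ENSMUSG00000029632, chromosome 6, 11900292 to 11907497, minus strand) was first assigned to complex I and is now known as a subunit of cytochrome c oxidase, complex IV. It was at 68.5 and 68.9 CPM (wt/wt) against 118 and 122 (fl/fl), without overlap. The means of 68.7 ± 0.306 and 119.8 ± 3.22 CPM (SD, n = 2 each) gave a log2 fold change of 0.80 ± 0.15 (SE; adjusted p = 0.0307, edgeR).

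Ndufb11 (ENSMUSG00000031059, chromosome X, 20615326 to 20617619, minus strand) is a membrane arm subunit of complex I. It had 66.2 and 62.8 CPM in wt/wt against 114 and 110.3 in fl/fl, so the female and the male fl/fl library were alike. The difference on the log2 scale came to 0.80 ± 0.15 (SE; adjusted p = 0.0324, edgeR), with means of 64.5 ± 2.37 and 112 ± 2.53 CPM (SD, n = 2 each). Its longest transcript shares 62.9% of its bases with 2 other annotated genes, of which Rbm10 had the most counts. These 2 genes together had 815, 876, 623 and 731 counts in the 4 libraries, against 1473, 1705, 1955 and 1932 for Ndufb11, so the value is uncertain as far as reads were split between them.

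Ndufb10 (ENSMUSG00000040048, chromosome 17, 24722060 to 24724478, minus strand) stood at 79.4 and 74.2 CPM in wt/wt and at 129 in each fl/fl library, a log2 fold change of 0.75 ± 0.15 (SE; adjusted p = 0.0381, edgeR). Ndufb3 (ENSMUSG00000026032, chromosome 1, 58586384 to 58595964, plus strand) had 52.8 and 48.8 CPM (wt/wt) against 80.2 and 91.1 (fl/fl), and a log2 fold change of 0.75 ± 0.16 (SE; adjusted p = 0.0473, edgeR). Both belong to the membrane arm, and in neither did the groups overlap. A copy, Gm45930, matches 37.0% of the Ndufb3 transcript and had at most 1 count in a library. For these 5 genes the fold change moved little when a library was left out, while the call did not hold. Without wt/wt 1 the log2 values were 0.75 to 0.96 with adjusted p from 0.268 to 0.318, and without wt/wt 2 they were 0.70 to 1.06 with adjusted p from 0.158 to 0.234. Without fl/fl 1, Ndufb11 (adjusted p = 0.0579, edgeR) and Ndufb10 (0.0635) missed the threshold, and without fl/fl 2 Ndufb3 did (0.0705).

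**Figure D2:**
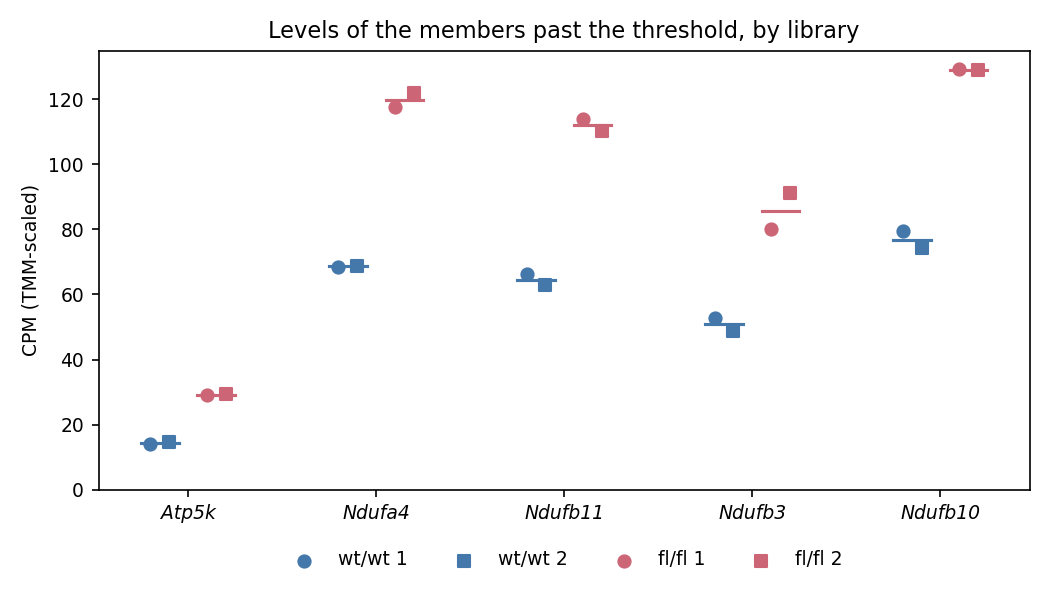
TMM-scaled CPM (y axis, from 0) of the 5 members that passed the test, 1 marker per library and a bar for each group mean. In all 5 genes both fl/fl libraries lie above both wt/wt libraries, from 14.0 to 29.3 CPM in Atp5k and from 74.2 to 129 CPM in Ndufb10.

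Below, 4 values in a row are in the order wt/wt 1, wt/wt 2, fl/fl 1 and fl/fl 2, and a value in parentheses with an SE is a log2 fold change, fl/fl over wt/wt. Counts by complex or list stand beside these shares over all tested genes. There 51.9% were positive, 28.1% had both fl/fl libraries above both wt/wt libraries and 26.3% had both below. In edgeR 11.8% were higher at an unadjusted p under 0.05, and 2.69% passed as higher. In complex I, NADH dehydrogenase, 35 of the 36 subunits had a positive log2 fold change, at a median of 0.47 (1.38-fold), and 30 had both fl/fl libraries above both wt/wt libraries. The Ndufb3, Ndufb10 and Ndufb11 calls are the 3 of this complex, and 20 subunits had an unadjusted p under 0.05. Summed expression of the 36 was 1623 and 1540.1 CPM (wt/wt) against 2244 and 2156 (fl/fl). The 7 core subunits, those conserved from bacteria that carry the flavin and iron-sulfur centres, were all positive at a median of 0.38, with 7 of 7 not overlapping. Among them Ndufv2 was highest in fold change at 0.48 ± 0.15 (SE; adjusted p = 0.125, edgeR). The 29 supernumerary subunits had a median of 0.49 and included the 3 calls.

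By naming series, which follows the historical fractions of the complex, the 10 Ndufb genes had a median of 0.70 and ran from 0.29 to 1.01, the 8 Ndufs genes 0.44, the 2 Ndufc genes 0.43, the 13 genes whose symbol starts with Ndufa (Ndufab1 included) 0.38 and the 3 Ndufv genes 0.29. The Ndufb genes encode subunits of the membrane arm. Whether these series differ was not tested. Ndufb9 had the highest value, with 6.24 and 6.34 CPM (wt/wt) against 12.9 and 12.6 (fl/fl), a log2 fold change of 1.01 ± 0.26 (SE; adjusted p = 0.0725, edgeR), and shares part of its exons with another gene on the same strand. Ndufb7, at 74.9 and 65.1 against 118 and 108 CPM, came closest to the threshold from outside (0.69; adjusted p = 0.0593, edgeR). It passed with DESeq2, with library size scaling alone and without fl/fl 2.

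Other complex I subunits overlapped or went the other way. Ndufa12 had 24.9 CPM in each wt/wt library and 27.9 and 16.5 in fl/fl, and was the 1 subunit with a negative value (−0.16 ± 0.27 SE). Ndufv3 was at 49.2 and 41.7 (wt/wt) against 59.4 and 33.8 (fl/fl), and Ndufb2, at 2.56 CPM or less, was too low to compare. The most abundant subunits per length, in CPM per kb of exonic length, were Ndufa2 (104 in wt/wt and 146 in fl/fl) and Ndufa1 (82.2 and 125). Ndufa2 had 66.8 and 52.6 CPM (wt/wt) against 84.1 and 83.3 (fl/fl), for a log2 fold change of 0.49 (adjusted p = 0.165, edgeR). Both are small accessory proteins, and in both the groups did not overlap.

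The 8 assembly factors that share the Ndufaf name build complex I and are not part of it. Their median level was 4.07 CPM per kb in wt/wt and 4.27 in fl/fl, against 25.9 and 33.3 for the subunits. The median log2 fold change was 0.41, 7 of 8 were positive and 5 did not overlap, and 0 passed in edgeR, DESeq2 or limma-voom, with 2 at an unadjusted p under 0.05. Ndufaf7, a methyltransferase, had 25.3, 30.2, 37.7 and 47.5 CPM (0.62 ± 0.20 SE; adjusted p = 0.130, edgeR). Ndufaf8 overlapped, with 22.5, 20.2, 20.2 and 24.7 CPM and 0.07 ± 0.21 (SE).

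**Figure D3:**
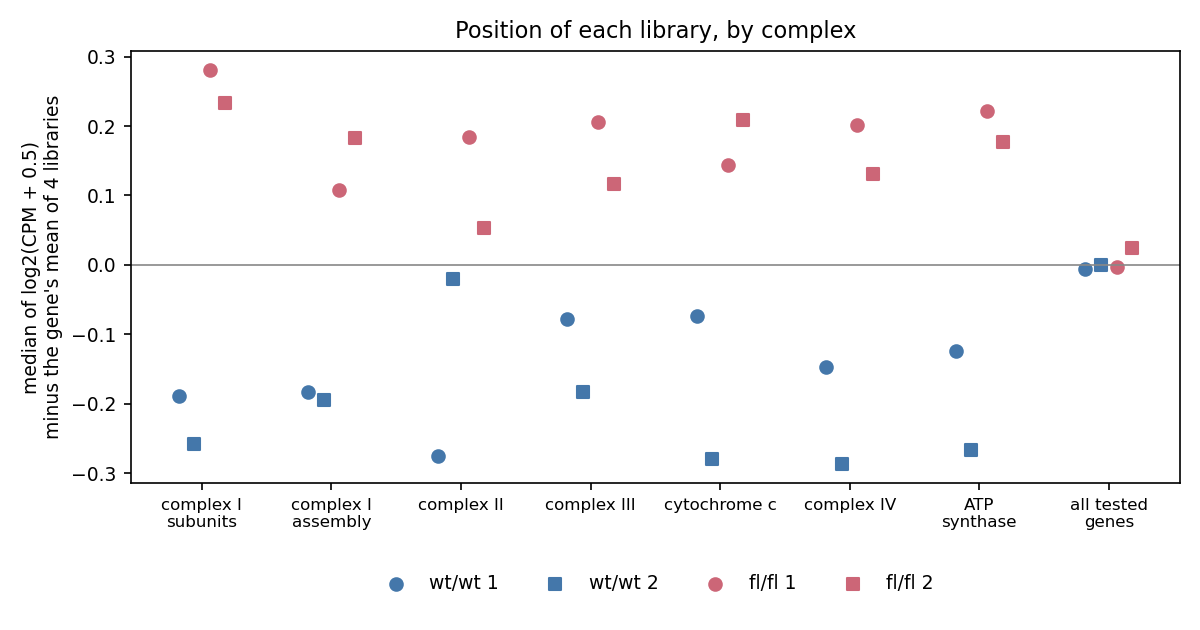
Position of each library within a gene's own 4 values: the median over each class of log2(CPM + 0.5) minus the gene's mean over the 4 libraries (y axis), for each complex and for all tested genes. For the complex I subunits wt/wt 1 and 2 lie at −0.19 and −0.26 and fl/fl 1 and 2 at 0.28 and 0.23.

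Complex II, succinate dehydrogenase, is also an enzyme of the tricarboxylic acid cycle. Its 4 subunits had a median of 0.26 (1.20-fold), with 0 called by edgeR, DESeq2 or limma-voom and 0 at an unadjusted p under 0.05. Sdha, the flavoprotein, was at 128 and 163 CPM (wt/wt) against 179 and 168 (fl/fl), a log2 fold change of 0.25 ± 0.18 (SE). The iron-sulfur subunit Sdhb was at 89.4 and 95.1 against 110.3 and 92.8 (0.14 ± 0.16 SE), with overlap. Of the membrane anchors, Sdhc had 64.4 and 75.6 against 90.6 and 77.8 CPM (0.27 ± 0.17 SE), and Sdhd 110.3 and 129.9 against 150.4 and 159 (0.36 ± 0.16 SE). Here wt/wt 1 was below wt/wt 2 in all 4 genes, so the median depends on the library: it was 0.078 without wt/wt 1, 0.42 without wt/wt 2, 0.14 without fl/fl 1 and 0.32 without fl/fl 2.

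All 9 complex III subunits had positive values, at a median of 0.32 (1.25-fold). In 7 the groups did not overlap, 3 had an unadjusted p under 0.05, and 0 passed in edgeR, DESeq2 or limma-voom. Those 3 were Uqcr11 (68.1, 47.9, 80.8 and 84.3 CPM; 0.51 ± 0.20 SE), Uqcrb (31.4, 27.6, 41.3 and 38.9; 0.44 ± 0.17) and Uqcrq (113, 90.3, 145 and 131; 0.44 ± 0.17), all small supernumerary subunits. Near-identical copies cover 38.4% of the Uqcr11 and 62.8% of the Uqcrb transcript, so the values of these 2 genes are uncertain. The subunits that carry electrons, cytochrome c1 (Cyc1) and the Rieske protein (Uqcrfs1), were at 0.33 ± 0.16 and 0.15 ± 0.15 (SE). Uqcrh, the hinge protein, had the highest level per length in the complex, 139 CPM per kb in wt/wt and 164 in fl/fl, and overlapped at 192, 152, 183 and 224 CPM. Cytochrome c itself (Cycs), which carries electrons from complex III to IV and also triggers apoptosis when released, had 81.3 and 70.4 CPM (wt/wt) against 94.6 and 98.9 (fl/fl), a log2 fold change of 0.35 ± 0.16 (SE; adjusted p = 0.256, edgeR).

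Complex IV, cytochrome c oxidase, had 15 of its 20 members tested. Of these 13 were positive, 12 without overlap, and the median was 0.39 (1.31-fold), with Ndufa4 as the 1 call. By the mean over both groups, complex IV also held the 4 genes with the highest level per length of all members: Cox6a1 at 228 CPM per kb in wt/wt and 299 in fl/fl, Cox8a at 213 and 269, Cox4i1 at 189 and 264 and Cox6b1 at 185 and 257. Cox7a2l, at 186 and 252, did not stand apart from Cox6b1. Cox6c, a small membrane subunit, had 126 and 111 CPM against 167 and 195 (0.61 ± 0.17 SE; adjusted p = 0.0864, edgeR) and passed with DESeq2.

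Several complex IV subunits exist as a widely expressed and a tissue-restricted isoform, and in these cells the widely expressed form held nearly all of the expression. Cox4i1 was at 301 and 283 CPM (wt/wt) against 384 and 436 (fl/fl), a log2 fold change of 0.49 ± 0.16 (SE; adjusted p = 0.135, edgeR). Its alternative, Cox4i2, known from lung and from low oxygen, had 50 and 43 counts in the wt/wt libraries against 7 and 0 in the others, or 2.25, 1.58, 0.408 and 0 CPM. It was the 1 tested member with both fl/fl libraries below both wt/wt libraries, at a fitted log2 fold change of −3.20 ± 1.14 (SE) and an adjusted p of 0.160 in edgeR. The count of 0 allows up to 3 counts, 0.171 CPM, in fl/fl 2, so the fitted value depends on the prior count (−2.29 at a prior count of 5). Without a filter on low counts Cox4i2 passed (adjusted p = 0.0069, edgeR), and it passed without fl/fl 1 (0.0238), where the remaining fl/fl library is the one at 0.

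For subunit 6a, Cox6a1 had 161, 159, 225 and 195 CPM (0.39 ± 0.16 SE) and the heart and muscle form Cox6a2 had 3 counts in wt/wt 1 and 0 elsewhere. For subunit 6b, Cox6b1 had 139.6, 123, 182 and 182 CPM (0.47 ± 0.16 SE) against 5.84, 6.96, 8.04 and 8.33 for the testis form Cox6b2 (0.35 ± 0.29 SE). Of the subunit 7a genes, Cox7a2 was at 68.4, 60.2, 96.5 and 83.1 CPM (0.48 ± 0.17 SE) and Cox7a2l, which serves in the joining of complexes III and IV, at 270.1, 278, 348 and 398 (0.44 ± 0.16 SE). The muscle form Cox7a1 stood at 3.73, 1.69, 1.86 and 1.37 CPM, with overlap and a value of −0.74 ± 0.57 (SE). Cox8a had 129, 134, 170.3 and 162 CPM (0.33 ± 0.15 SE), and Cox8b, Cox8c and Cox7b2 had 0 counts in every library. Ndufa4l2, the relative of Ndufa4 that is induced by low oxygen, had 5 and 4 counts in wt/wt and 0 in fl/fl, too few to test.

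ATP synthase had 17 rows, of which 1, a second row named Atp5o, had 0 counts in every library. Near-identical copies cover 100% of the transcript of that row and 92.0% of that of the tested Atp5o row, so the counts of both are uncertain. All 16 tested subunits were positive, 12 without overlap, at a median of 0.37 (1.30-fold). The soluble F1 head, which holds the catalytic sites (Atp5a1, Atp5b, Atp5c1, Atp5d and Atp5e), had a median of 0.25, with 3 of 5 not overlapping and 0 at an unadjusted p under 0.05. The 11 tested subunits of the stalk and membrane part had a median of 0.42, with 9 not overlapping, 5 at an unadjusted p under 0.05 and Atp5k as the 1 call. The difference between the F1 head and the other subunits was not tested. Atp5a1, subunit alpha, was at 437 and 487 CPM (wt/wt) against 589.7 and 500.5 (fl/fl), a log2 fold change of 0.24 ± 0.17 (SE), and catalytic subunit beta, Atp5b, overlapped at 381, 409, 519.6 and 378 CPM. Of the stalk, subunit b (Atp5f1) was at 215, 205, 325 and 298 CPM (0.57 ± 0.16 SE; adjusted p = 0.0864, edgeR) and subunit d (Atp5h) at 226, 189, 276 and 278 (0.42 ± 0.17 SE; adjusted p = 0.201). Near-identical copies cover 64.6% and 71.3% of their transcripts, so both values are uncertain.

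Atp5g1, Atp5g2 and Atp5g3 encode the same mature subunit c, the protein of the rotating ring, and differ in the targeting sequence that is cut off. Atp5g3 was the most abundant per length, 69.4 CPM per kb in wt/wt and 104 in fl/fl, followed by Atp5g2 with 42.5 and 52.5 and Atp5g1 with 9.88 and 11.4. Atp5g3 had 159 and 143 CPM (wt/wt) against 228 and 227 (fl/fl), a log2 fold change of 0.59 ± 0.15 (SE; adjusted p = 0.0787, edgeR) and passed with DESeq2. Atp5g2 had 61.0 and 81.4 against 86.5 and 89.4 CPM (0.30 ± 0.19 SE), and Atp5g1 overlapped at 50.7 and 46.3 against 70.9 and 41.6 (0.21 ± 0.26 SE).

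**Figure D4:**
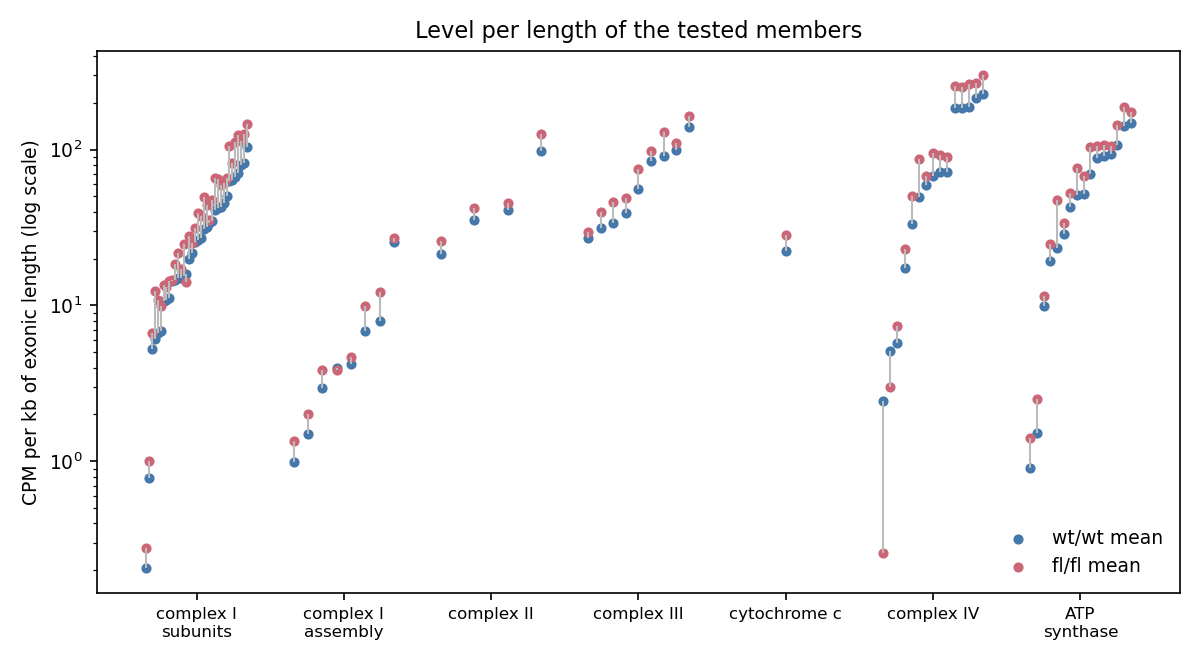
Level of each tested member in CPM per kb of exonic length (y axis, log scale), by complex, with the wt/wt and the fl/fl mean of each gene as separate points. Complex IV runs from Cox4i2 at 2.43 in wt/wt and 0.259 in fl/fl to Cox6a1 at 228 and 299.

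Of the 3 X-linked members, Ndufb11 rose, Ndufa1 was at 35.9, 33.0, 54.4 and 50.3 CPM (0.60 ± 0.17 SE; adjusted p = 0.0865, edgeR) and Cox7b overlapped at 86.2, 58.5, 90.1 and 73.0 (0.17 ± 0.23 SE). In all 3, fl/fl 2, the female library, was below fl/fl 1. Members are short, with a median exonic length of 1737 bases against 4002 for all tested genes, and short genes as a whole tended to lie higher: the median log2 fold change of all genes was 0.12 in the shortest of 5 length classes of equal size and −0.09 in the longest. Within the shortest class the 55 members had a median of 0.44, and in the next 3 classes the 18, 11 and 5 members had 0.29, 0.35 and 0.41 against 0.08, 0.04 and −0.01 for all genes. With the length trend removed, 84 of 90 members were positive at a median of 0.33. Without the 42 members that share sequence or exons with another gene, 47 of 50 were positive at a median of 0.36.

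The mitochondrial genome encodes 13 further subunits. Of these, 10 were tested and 8 had a negative log2 fold change, at a median of −0.19. In all 10 the groups overlapped, and 0 had an unadjusted p under 0.05 or passed in edgeR, DESeq2 or limma-voom. The sum over all 13 was 8714 and 6373 CPM (wt/wt) against 5853 and 6714 (fl/fl). The gene with the most counts was mt-Co1, the catalytic subunit of complex IV. It was at 5529, 4061, 3742 and 4072 CPM (adjusted p = 0.470, edgeR), and wt/wt 1 stood above the other 3 libraries. Without wt/wt 1, 7 of the 10 were positive, so the direction rests on that library. Near-identical copies cover the whole or nearly the whole of mt-Co1, mt-Co2, mt-Co3 and mt-Atp6, so their counts are uncertain. So are the order of these genes by counts, their sum and the share of the mitochondrial genome in all counts. For mt-Co1 the copies had 118 to 171 counts against 64268 to 123079 for the gene itself, while for the other 3 genes the copies had 48 to 149 counts against 34 to 145. The difference between the nuclear and the mitochondrial genes was not tested.

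Other mitochondrial genes were taken from lists. Of 46 further assembly factors, 44 were tested and 30 were positive, at a median of 0.22. In 20 both fl/fl libraries lay above both wt/wt libraries and in 6 below, where the shares over all tested genes were 28.1% and 26.3%. By edgeR and limma-voom 0 passed, by DESeq2 2 did, and 7 had an unadjusted p under 0.05, all higher. Over all tested genes 5.81% were called higher by DESeq2, and 11.8% were higher at an unadjusted p under 0.05 in edgeR. The counts of passing genes and of unadjusted p under 0.05 in this list, and in the 2 lists that follow, were near or under these last shares. Coa3, a translation and assembly factor of complex IV, was at 41.9 and 37.5 CPM against 64.0 and 63.4 (0.68 ± 0.16 SE; adjusted p = 0.0616, edgeR), and Cmc2, another complex IV factor, at 4.94 and 3.21 against 13.5 and 7.42 (1.36 ± 0.41 SE; adjusted p = 0.108). The 18 genes of the tricarboxylic acid cycle and pyruvate dehydrogenase had a median of 0.18, with 14 positive, 1 at an unadjusted p under 0.05 (Fh1, fumarase, 0.46 ± 0.18 SE) and 0 passing in edgeR, DESeq2 or limma-voom. The 13 carriers and channels had a median of 0.21, with 10 positive, 2 at an unadjusted p under 0.05 and 0 passing in edgeR or limma-voom, against 1 in DESeq2. Mpc2, a subunit of the mitochondrial pyruvate carrier, led them at 47.7, 45.0, 71.4 and 76.0 CPM (0.67 ± 0.16 SE; adjusted p = 0.0600, edgeR).

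Among 16 genes of ubiquinone synthesis and of other donors to ubiquinone, 12 were positive at a median of 0.27 and 1 rose, where 2.69% of all tested genes did. This was Sqor, sulfide quinone oxidoreductase, which passes electrons from sulfide to ubiquinone, at 47.0 and 66.6 CPM (wt/wt) against 131 and 117 (fl/fl), a log2 fold change of 1.13 ± 0.21 (SE; adjusted p = 0.0306, edgeR). The call ended without wt/wt 1 (0.85; adjusted p = 0.253, edgeR) and without wt/wt 2 (1.40; adjusted p = 0.0883). The ubiquinone synthesis genes Coq4 and Coq7 were at 1.55 ± 0.40 and 1.07 ± 0.31 (SE), with adjusted p of 0.0773 and 0.0989. The 14 tested genes of mitochondrial transcription and biogenesis had a median of 0.03, with 11 overlapping and 0 passing in edgeR or limma-voom. DESeq2 called 834 of all 13496 tested genes lower, and 1 of these 14. That gene was Pprc1, a coactivator of respiratory gene transcription, at 43.4 and 33.9 CPM (wt/wt) against 21.3 and 24.5 (fl/fl), a log2 fold change of −0.75 ± 0.20 (SE; adjusted p = 0.0847, edgeR). Tfam, which packages mitochondrial DNA and serves in its transcription, was at 0.39 ± 0.22 (SE; adjusted p = 0.360, edgeR).

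**Figure D5:**
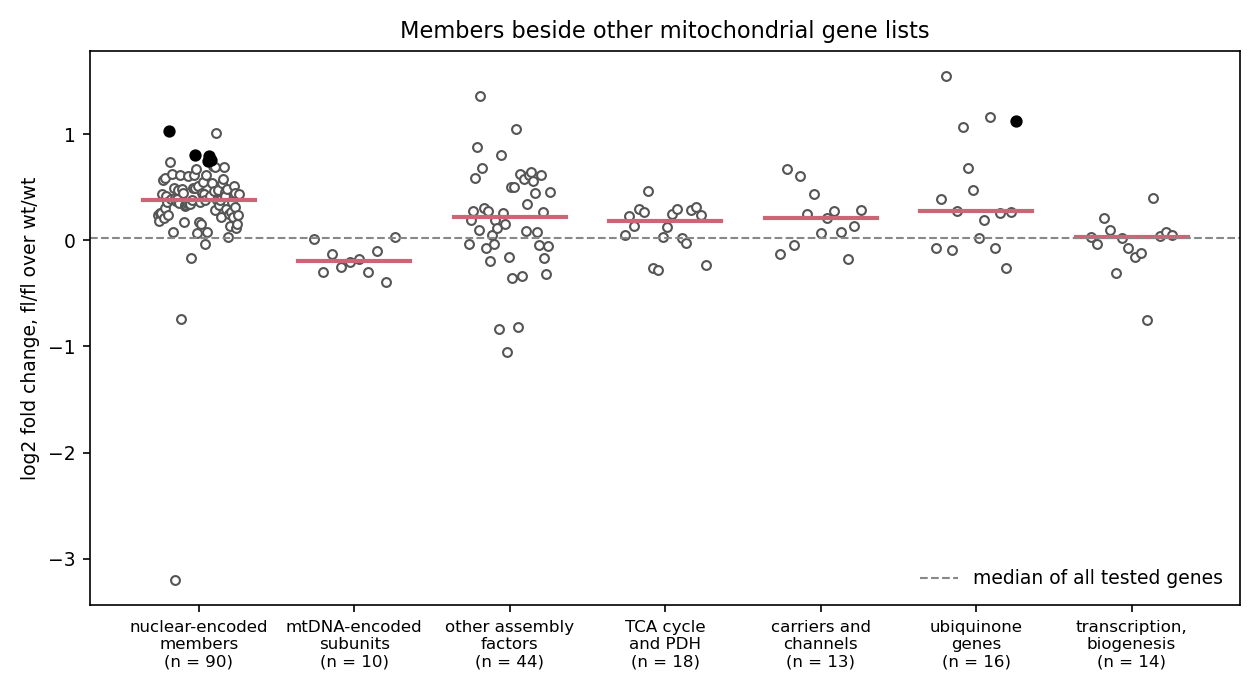
Log2 fold change (fl/fl over wt/wt, y axis) of each tested gene in the nuclear respiratory chain set and in the other mitochondrial gene lists, with list medians as bars and the median of all tested genes as a dashed line. The nuclear subunits and assembly factors have a median of 0.38, the mitochondrially encoded subunits −0.19 and the transcription and biogenesis genes 0.03.

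The 15 cell cycle genes were all positive, where 51.9% of all tested genes were, at a median of 2.99. Of these, 8 rose, against 2.69% of all tested genes. The sums of the 15 were 377 and 277 CPM (wt/wt) against 1342 and 576 (fl/fl). Without fl/fl 1 the median was 1.78, with 13 of 15 positive, and without fl/fl 2 it was 3.59. Without wt/wt 1 or wt/wt 2 it was 3.50 or 2.57. The sum over the 96 respiratory chain genes was 9172 CPM in fl/fl 1 and 8854 in fl/fl 2, and the part of the cell cycle genes in their values was not tested.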

How the data were processed

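Poly(A) RNA of 4 libraries was compared, 2 of each genotype as the titles give it. The authors deposited 1 table of raw counts per Ensembl gene. Per the submitters' processing notes, reads were processed on GRCm38 with STAR 2.5.0, Trimmomatic 0.33 and FastQC 0.11.5. Which program counted the reads, with which annotation and whether by strand, is not given in the sources used here, so reads of overlapping, antisense or near-identical genes may be shared. Symbols, positions and exonic lengths came from GENCODE M21, which named 55227 of the 55487 rows. Levels per length divide CPM by the summed exonic length in kb.

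Differences between genotypes were tested in R 4.3.3 with edgeR 4.0.16, using a minimum count of 10 (filterByExpr), which kept 13496 of 22696 genes that had counts, then TMM scaling and the two-sided quasi-likelihood F test with Benjamini-Hochberg adjustment over all tested genes. The code was checked on simulated counts. A fold change is the fl/fl level divided by that of wt/wt (prior count 0.125), and its SE is the log2 value without sign over the square root of F. The biological coefficient of variation was 25.5%. An exact permutation test of 2 libraries against 2 cannot go below p = 0.333. A count of 0 allows up to 3 counts, 0.111 to 0.175 CPM by library, for counting error only.

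Copies were matches of at least 95% identity over at least 100 bases of a member's longest transcript to another GENCODE transcript (blastn 2.17.0). They were found for 39 of 96 members. Promoters are RefSeq's, GRCm38.p6, matched by symbol for 77 of 96 members.

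The members and lists were chosen with earlier results of these data known. Members given with all library values were those past the threshold, in each class the 2 with the highest level per length and the 3 with the largest change among genes of at least median expression, isoform pairs, the 3 subunit c genes and X-linked members. Of other lists, those past the threshold and up to 4 with the smallest p could be named. Ndufa12, Ndufb2, Ndufb7, Ndufb9, Ndufv2, Ndufv3, Atp5b, Cyc1 and Uqcrfs1 were named after their values were seen. Alternatives were other scalings (RLE, library size, upper quartile), filters, limma-voom 3.58.1, DESeq2 1.42.0, a prior count of 5, the replicate number as a block and leaving out each library. Removing a trend on gene length and leaving out members that share sequence were added after the data were seen.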

Additional observations from a re-analysis of the deposited data

How the results depend on the processing

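Of 790 genes called over the whole table, the count was 2088 without a filter on low counts, 1618 with DESeq2, 1215 with the replicate block and from 0 to 1477 with a library left out. Members called higher numbered 5, 12 without the filter and 12 with DESeq2, where the shares over all genes were 2.69%, 4.48% and 5.81%. The 5 calls ended with either wt/wt library left out. Members called lower numbered 0, 1 without the filter, and 0 to 1 with a library left out. In the other lists 9 genes were called, 20 without the filter, 17 with DESeq2, 15 with the replicate block and 0 to 17 with a library left out. The cause was not tested. The 5 members remained called with RLE and library size scaling, the filter at a CPM of at least 5, limma-voom and the block, and 4 of them with upper quartile scaling, where Ndufb3 had an adjusted p of 0.0524 in edgeR. In each of these settings 82 to 86 members were positive.

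With a library left out, the median log2 fold change was 0.33 to 0.42 over all members, 0.39 to 0.50 in complex I subunits, 0.30 to 0.40 in its assembly factors, 0.078 to 0.42 in complex II, 0.23 to 0.37 in complex III, 0.30 to 0.43 in complex IV and 0.29 to 0.41 in ATP synthase. The group with 1 library is then assumed to vary like the other. For ATP synthase the median was 0.31 with the length trend removed and 0.25 without members that share sequence or exons. For the complex I assembly factors it was 0.35 and 0.27 in these settings and 0.36 with the filter at CPM 5. None of the results computed changed direction past its threshold in any setting.

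Libraries of equal replicate number did not deviate together (a correlation of 0.0216 over 13496 genes, from only 2 numbers), so the numbers were not used to pair samples. With the replicate block, 6 members were called higher instead of 5, Ndufb7 being added. The share of all tested genes called higher was then 4.46% instead of 2.69%. Depth limits the low members: the tested members Ndufb2, Cox7a1, Cox4i2 and Atp5s were at 3.73 CPM or less in every library. The tested row of Atp5o was as low, at 1.53 to 2.97 CPM. However, 92.0% of its transcript is shared with 3 other genes at up to 100% identity, so its level is uncertain.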
